A study of Homo sapiens with 4 samples.

Results

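The enzymes that make and salvage purines were examined as a set of 10 genes chosen by name: PPAT, GART, PFAS, PAICS, ADSL and ATIC of de novo synthesis, IMPDH2 and GMPS of the guanine branch, and APRT and HPRT1 of salvage. Of these, 8 were listed in all 4 ribosome profiling tables, among 9271 transcripts listed in any table and 8568 listed in all. ADSL and GMPS were listed in none and were not analysed here. In ribosome profiling, fragments of mRNA shielded by ribosomes from nuclease (RPFs) are sequenced, and each read marks where a ribosome sat. The cells were HEK293T, an embryonic kidney line of human origin that was transformed with adenovirus DNA and later made to express the SV40 large T antigen, with 2 replicates (A and B) of untreated cells, which received 0 µg/mL, and 2 replicates (A and B) of cells that received 500 µg/mL of the aminoglycoside G418, each for 24 hr. G418 binds the decoding center of the ribosome and lets near-cognate tRNAs be accepted at stop codons. All libraries are from a single transformed line, and cycloheximide was present in the lysis buffer of every sample. Reads on mRNAs numbered 6082600 in untreated A, 2440204 in untreated B, 5677910 in G418 A and 4763858 in G418 B, so untreated B was the shallowest library. Of 6 genes taken as markers of the line, 5 were listed in all 4 tables, at 533 to 658 RPKM for VIM, 46.6 to 54.2 for NEFL, 30.5 to 37.2 for NEFM, 26.7 to 29.4 for KRT18 and 1.45 to 2.13 for KRT8, and PAX2 was listed only in the G418 libraries. PTPRC, ALB and HBB, which mark blood cells, liver and red cells, were listed in no table, and COL1A1, a fibroblast collagen, stood at 3.59 to 5.54 RPKM, above KRT8.

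Purine nucleotides are built in the cytosol on a ribose phosphate donated by PRPP, in a chain of reactions that ends at inosine monophosphate (IMP), from which AMP and GMP are made. Several steps of the chain are fused into single proteins, and the enzymes can gather into clusters called purinosomes when purines are scarce. Salvage enzymes instead join free bases to PRPP, which spares the energy of de novo synthesis, and loss of HPRT1 causes Lesch-Nyhan disease.

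The windows around the normal termination codon (NTC) are shown because the set holds 3 pairs of transcripts with the same 4 nt stop codon, meaning the stop codon and the nucleotide after it. Each window runs 5′ to 3′ on the mRNA over 30 nt, with 15 nt of coding sequence, the NTC in capitals and 12 nt of 3′UTR.
PFAS: cuggaagggagcugcUGAcuggccacaggg
APRT: cuccugcaguaugagUGAccacagggccuc
GART: uggguuaaagaggaaUGAagccuuuuaauu
IMPDH2: gagaagcggcuuuucUGAaaagggauccag
PAICS: agagaauguaauuuaUAAgaaagaaugcca
HPRT1: gcaaaauacaaagccUAAgaugagaguuca
ATIC: cggcucuuccaccacUGAuuuuaccacaca
PPAT: guagaauuagaauggUAGcugguaggguug

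Each of the 8 windows lies within a single exon that holds the end of the coding sequence and the start of the 3′UTR (hg38, GENCODE version 44). PFAS (ENST00000314666.11) is read from the plus strand at chr17:8269247-8269276, and APRT (ENST00000378364.7) from the minus strand at chr16:88809686-88809715. GART (ENST00000381815.9) is on the minus strand at chr21:33504112-33504141, and IMPDH2 (ENST00000326739.9) on the minus strand at chr3:49024371-49024400. PAICS (ENST00000264221.6) is on the plus strand at chr4:56459521-56459550, and HPRT1 (ENST00000298556.8) on the plus strand at chrX:134500060-134500089. ATIC (ENST00000236959.14) is on the plus strand at chr2:215349638-215349667, and PPAT (ENST00000264220.6) on the minus strand at chr4:56395340-56395369. PPAT and PAICS are head-to-head neighbours, with 133 nt between the annotated 5′ ends of these transcripts. UGA ended 5 of the 8 coding sequences, UAA ended 2 and UAG ended 1. PFAS and APRT shared UGAC, GART and IMPDH2 shared UGAA, and PAICS and HPRT1 shared UAAG. In the 12 nt after the NTC, PFAS and APRT each held 3 A or U, PAICS and HPRT1 each held 7, GART held 9 and IMPDH2 held 6, against a median of 5 over 8873 matched transcripts.

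Readthrough was measured as the ribosome readthrough score (RRTS), the RPF density from the NTC up to the next stop codon in the same frame of the 3′UTR (the first 3′TC) over the CDS density of that transcript, printed here as a percent. The counted length leaves out the first 6 nt after the NTC and includes the 3′TC codon. Reads given here as before the 3′TC can therefore include ribosomes on that codon. Readthrough rose in G418-treated cells for 7 of the 8 transcripts, by edgeR's quasi-likelihood test with CDS reads as offset and a Benjamini-Hochberg adjusted p under 0.05, as it did for 82.6% of the 2827 transcripts tested. All 8 members passed the minimum of 10 reads over the 4 libraries. The median log2 fold change was 3.01 over the members and 3.18 over all transcripts tested, so at this minimum the members' share and size were near the background. That share moves with the minimum, at 44.9% of 5815 transcripts with at least 1 read and 92.4% of 1662 with at least 20, where 7 of 8 and 7 of 7 members passed. The members differed from each other in the level reached and in the fitted log2 fold change, which ran from 0.19 in HPRT1 to 4.49 in GART. Mean RRTS in G418 ran from 59.3% in PFAS to 7.24% in HPRT1, and transcripts with the same 4 nt stop codon stood at different levels. With 2 libraries against 2, an exact permutation test of a single value cannot go below p = 0.333 (two-sided), so only the fits across all transcripts were tested.

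**Figure D1:**
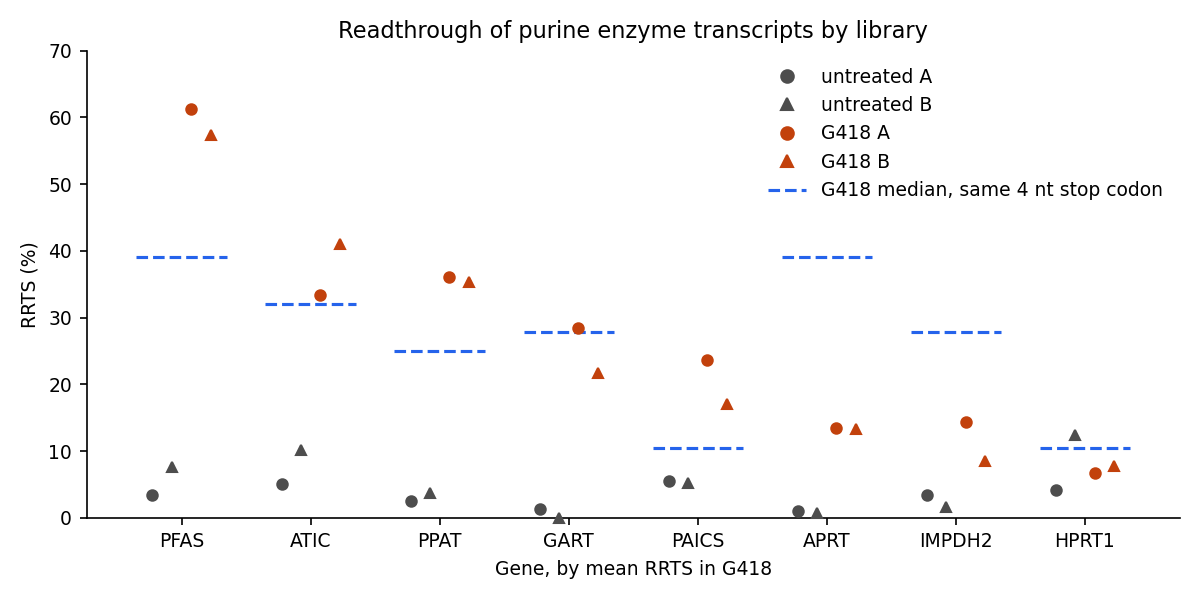
RRTS in percent (y axis) for the 8 listed genes (x axis, ordered by mean RRTS in G418), with 1 point per library, circles for replicate A and triangles for replicate B. Dashed lines give the median in G418 of all transcripts with the same 4 nt stop codon, which PFAS exceeded (39.1%) and APRT did not reach.

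Among the de novo enzymes, PFAS, which adds an amide nitrogen from glutamine to formylglycinamide ribonucleotide, had the highest RRTS in G418. Its reads before the first 3′TC numbered 3 and 3 in untreated A and B and 45 and 37 in G418 A and B, over 198 counted nt. Its RRTS was 3.35% and 7.56% in untreated and 61.3% and 57.3% in G418 libraries. The groups were far apart and did not overlap, and the fitted log2 fold change was 3.62 (SE 0.46, adjusted p = 8.22e-14 by edgeR). Density before the 3′TC was thus more than 50% of CDS density in both G418 libraries. Of 761 transcripts ending in UGAC, 71.2% had a lower mean RRTS in G418, and of all 7189 transcripts 88.5% did.

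ATIC, which carries out the last steps to IMP, and PPAT, the amidophosphoribosyltransferase that commits PRPP to the pathway, followed at levels whose ranges overlapped. ATIC had 4, 3, 22 and 22 reads over 36 counted nt in untreated A, untreated B, G418 A and G418 B, with RRTS of 5.08%, 10.2%, 33.4% and 41.0%. PPAT had 2, 1, 26 and 23 reads over 96 counted nt in the same order, with RRTS of 2.56%, 3.68%, 36.2% and 35.3%. Both G418 libraries exceeded both untreated libraries for each gene. The fitted log2 fold change was 2.47 for ATIC (SE 0.54, adjusted p = 1.89e-05 by edgeR) and 3.56 for PPAT (SE 0.65, adjusted p = 2.1e-07 by edgeR), and that of ATIC was 1.83 without untreated A. From summed reads, PPAT was 12.6-fold higher in G418, with an exact 95% counting interval of 4.05 to 63.0 that reflects its 3 untreated reads. PPAT was the only member with a UAG stop codon, and its mean stood above the 25.1% median of 473 transcripts ending in UAGC.

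GART, which fuses the activities of GAR synthetase, GAR transformylase and AIR synthetase in 1 protein, came next. It had 2 reads in untreated A, 0 in untreated B, 29 in G418 A and 18 in G418 B over 93 counted nt. Its RRTS was 1.39%, 0%, 28.4% and 21.8% in that order, and the 0 allows an RRTS of up to 5.49% at a floor of 3 reads. The fitted log2 fold change was 4.49 (SE 0.69, adjusted p = 4.86e-10 by edgeR), and 7.35 without untreated A, where the untreated library that remains holds no read. The fold from summed reads was 25.2 with an interval of 6.61 to 214, and rests on 2 untreated reads.

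PAICS, which carries the AIR carboxylase and SAICAR synthetase activities, overlapped GART in level. It had the most untreated reads of the set, 27 and 9, and reached 102 and 63 in G418 A and B over 78 counted nt. RRTS was 5.51% and 5.17% in untreated and 23.7% and 17.1% in G418 libraries, a narrow untreated pair and a G418 pair well above it. The log2 fold change of 1.92 (SE 0.26, adjusted p = 1.77e-12 by edgeR) was lower than the median of all transcripts, while its mean G418 RRTS exceeded that of 75.3% of 490 transcripts ending in UAAG. Its untreated mean exceeded that of 83.2% of 458 transcripts with this stop codon, among which 49.3% were at 0.

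The remaining members were lower. APRT, which joins adenine to PRPP to give AMP, has no in-frame 3′TC before the end of its 359 nt 3′UTR. Its reads numbered 14, 5, 191 and 170 in untreated A, untreated B, G418 A and G418 B, the largest G418 counts of the set. RRTS was 1.09% and 0.697% in untreated and 13.5% and 13.3% in G418 libraries, so the G418 pair was tight (13.4% ± 0.159, SD, n = 2). Its fitted log2 fold change of 3.81 (SE 0.25, adjusted p = 1.86e-50 by edgeR) exceeded the median of all transcripts although its G418 level exceeded only 17.0% of the UGAC transcripts. IMPDH2, which oxidises IMP on the way to GMP, had 5 and 1 reads in untreated A and B and 19 and 9 in G418 A and B over 42 counted nt. Its RRTS was 3.40% and 1.67% in untreated and 14.3% and 8.45% in G418 libraries. The groups did not overlap and the log2 fold change was 1.97 (SE 0.66, adjusted p = 0.00429 by edgeR), but without G418 A the adjusted p was 0.149 and with DESeq2 it was 0.0848. Without untreated A the log2 fold change of IMPDH2 was 2.71. The IMPDH2 mean in G418 exceeded that of 20.4% of 972 transcripts ending in UGAA, whose median was 27.8%.

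HPRT1, which salvages hypoxanthine and guanine, was the member without a call. A UGA in its 3′UTR closes the reading frame after 5 codons, shown here with the NTC and the 3′TC in capitals because this short run is all that the score of HPRT1 can use.
HPRT1 from NTC to 3′TC: UAAgaugagaguucaaguUGA
The run of 21 nt left 12 counted nt, the last codon of which is the 3′TC itself. These held 3 and 3 reads in untreated A and B and 4 and 4 in G418 A and B. RRTS was 4.19% and 12.5% in untreated and 6.70% and 7.77% in G418 libraries, so the groups overlapped, and the value that 3 reads would give lay between 4.19% and 12.5%. The fitted log2 fold change was 0.19 (SE 0.86, adjusted p = 0.832 by edgeR), with a 95% interval of -1.49 to 1.88 whose upper end was under the median of all transcripts tested. The interval holds both no change and a smaller rise, so these reads do not separate them. Over its whole 3′UTR, HPRT1 had 16 and 11 reads in untreated and 34 and 16 in G418 libraries. Per length and CDS density these were 0.458% and 0.937% in untreated and 1.17% and 0.638% in G418 libraries, which overlap, and the test over the whole 3′UTR was not passed (log2 fold change 0.65, adjusted p = 0.0967 by edgeR).

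The G418 ranges of neighbours in the order did not overlap between PFAS and ATIC, between PPAT and GART, between PAICS and APRT or between IMPDH2 and HPRT1. They overlapped between ATIC and PPAT, between GART and PAICS and between APRT and IMPDH2. The untreated order was another one, with HPRT1 (8.32% mean) and ATIC (7.64% mean) highest and GART (0.696% mean) and APRT (0.893% mean) lowest, but for members other than PAICS and APRT each untreated library holds at most 5 of these reads.

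The 3 pairs with a shared 4 nt stop codon were then compared within each library. They are all the pairs among the listed members that share one. PFAS stood above APRT by 4.53-fold in G418 A (exact 95% counting interval 3.20 to 6.30) and by 4.31-fold in G418 B (2.93 to 6.18). The same ratio was 3.08 (0.567 to 11.0) in untreated A and 10.8 (1.68 to 55.8) in untreated B. PFAS was thus the higher in all 4 libraries, although the interval held 1 in untreated A. The fitted rises were 3.62 for PFAS and 3.81 for APRT on the log2 scale, and their order depended on the untreated library kept, at 2.94 and 4.25 without untreated A and 4.08 and 3.61 without untreated B. GART stood above IMPDH2 by 1.98-fold in G418 A (1.07 to 3.74) and by 2.58-fold in G418 B (1.10 to 6.51). In untreated cells the ratio was 0.409 (0.0390 to 2.50) in A, from 2 and 5 reads, GART had 0 reads and IMPDH2 had 1 in B, and summed reads gave 0.348 (0.0343 to 1.94). PAICS stood above HPRT1 by 3.54-fold in G418 A (1.34 to 13.2) and by 2.20-fold in G418 B (0.819 to 8.34), so the interval held 1 in G418 B. In untreated cells that ratio was 1.31 (0.405 to 6.77) in A and 0.415 (0.104 to 2.38) in B, on opposite sides of 1, and 0.864 (0.361 to 2.51) from summed reads. Over the whole 3′UTR, most of which lies past the 3′TC in PFAS, the direction of the PFAS and APRT pair turned, with a mean 3′UTR occupancy in G418 of 10.9% for PFAS and 13.2% for APRT. The intervals of the ratios cover counting error of the reads before the 3′TC only, and whether the members of a pair differ in their response to G418 was not tested.

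**Figure D2:**
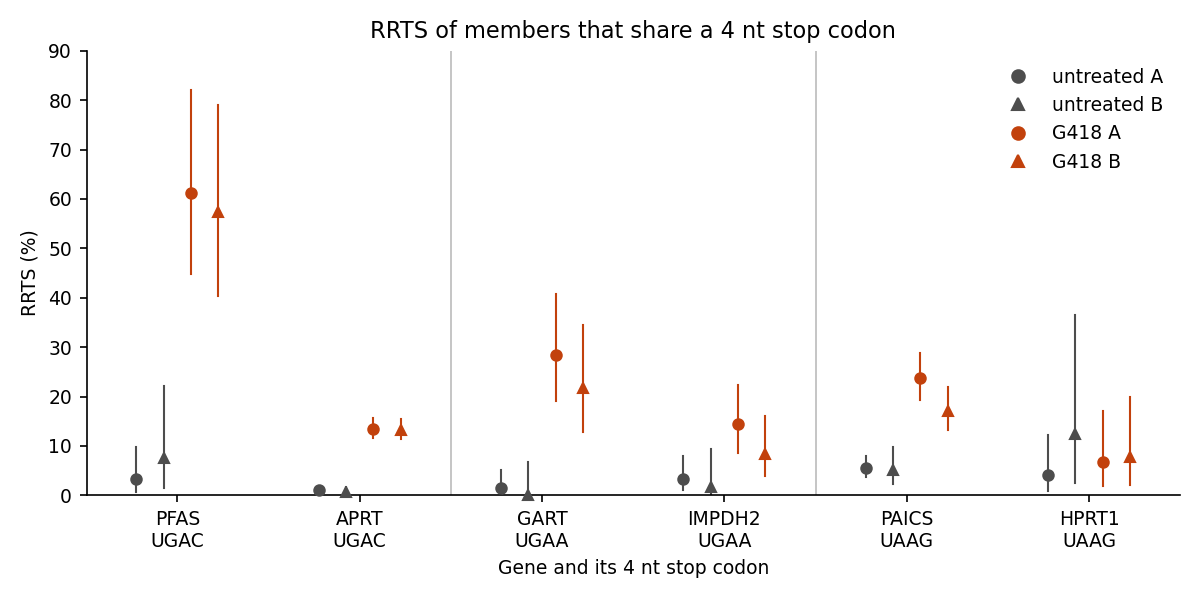
RRTS in percent (y axis) of the 6 genes that share a 4 nt stop codon with another (x axis, pairs divided by vertical lines), with 1 point per library and exact 95% counting intervals as bars. PFAS and APRT do not overlap in G418 (61.3% and 57.3% against 13.5% and 13.3%), whereas the bars of PAICS and HPRT1 overlap in G418 B.

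The pairs also differ in how much 3′UTR is counted, so each member of a pair was also set beside transcripts of its stop codon and length class. Among UGAC transcripts the median RRTS in G418 was 36.9% for 176 transcripts with over 100 and up to 200 counted nt, where PFAS falls, and 26.5% for 96 transcripts with over 200, where APRT falls. Among UGAA transcripts it was 28.7% for 294 transcripts with over 50 and up to 100 nt (GART) and 31.3% for 236 with over 25 and up to 50 nt (IMPDH2). Among UAAG transcripts it was 12.8% for 138 transcripts with over 50 and up to 100 nt (PAICS) and 15.0% for 85 with up to 25 nt (HPRT1). By mean RRTS within these length classes, PFAS and PAICS were still above the median, GART was just below it, and APRT and IMPDH2 were below the lower quartile (15.5% and 14.2%). For IMPDH2 this holds for the mean and for G418 B (8.45%), whereas G418 A (14.3%) was just above that quartile. HPRT1 was below the median but between the quartiles of its class (0% and 33.6%). The part of length in the differences within pairs was not tested.

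The 3′TC is the next place where a ribosome that passed the NTC in frame can terminate, and density beyond it was set against density before it for the 7 members that have one. Over all transcripts with a 3′TC, density after the first 3′TC was 2.78% of that before it in G418 A and 2.81% in G418 B, and 8.38% and 8.01% in untreated A and B. In PFAS it was 3.03% and 2.10% in G418 A and B, from 7 and 4 reads over 1018 nt. In PAICS it was 0.832% and 0.709%, from 19 and 10 reads over 1746 nt, and in PPAT 0.978% and 1.11%, from 5 and 5 reads over 1888 nt. In both G418 libraries this ratio was below that of all transcripts in PAICS and PPAT, and in PFAS it lay on either side of it. Untreated A and B held 1 and 0 reads past the 3′TC in PFAS, 13 and 7 in PAICS and 1 and 1 in PPAT. GART had 3 reads in each G418 library over 92 nt, 10.5% and 16.8% of the density before the 3′TC. IMPDH2 had none in the 10 nt that remain.

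In the G418 libraries, density past the 3′TC relative to that before it was higher in ATIC than in the other members with a 3′TC. Its 3′UTR of 109 nt holds 2 in-frame termination codons, the first a UGA after 13 sense codons, and 22 and 13 reads fell in the 67 nt past that UGA in G418 A and B, against 3 and 0 in untreated A and B. Density there was 53.7% and 31.8% of that before the 3′TC, the highest values of the 7 members in both G418 libraries. In untreated A the same ratio was 40.3%, between the G418 values, from 3 reads after and 4 before the 3′TC, and in untreated B it was 0%. HPRT1 had 30 and 12 reads over 573 nt past its 3′TC in G418 A and B and 13 and 8 in untreated A and B. Its ratios of 15.7% and 6.28% in G418 rest on 4 reads before the 3′TC in each library. In-frame termination codons in the 3′UTR numbered 1 in IMPDH2, 2 in ATIC, 6 in GART, 15 in HPRT1, 22 in PFAS, 41 in PAICS and 45 in PPAT. The ratios of the members thus average over stretches of unlike length with unlike numbers of further stops. The part of these in the ratio of ATIC was not tested.

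Levels on the coding sequence were compared next, in RPKM, which is scaled to length and to mapped reads. In untreated cells the order of mean density was PAICS at 639 ± 91.8, HPRT1 at 592 ± 108, APRT at 473 ± 82.2, IMPDH2 at 379 ± 18.1, ATIC at 228 ± 24.7, GART at 162 ± 15.3, PPAT at 82.0 ± 12.9 and PFAS at 51.1 ± 0.584 RPKM (SD, n = 2 each). The ranges of PAICS and HPRT1 overlapped, as did those of HPRT1 and APRT, and all other neighbours were apart. Every member was above the median of 16.8 RPKM over 8568 transcripts, from PFAS, which exceeded 75.7% of them, to PAICS, which exceeded 97.7%. The de novo enzymes therefore spanned a range of more than 10-fold in ribosome density, with PAICS at one end and PFAS at the other. PAICS and PPAT, the head-to-head neighbours, differed in density in every library (704 against 91.1 RPKM in untreated A and 615 against 88.5 RPKM in G418 B). RNA-seq was not used here, so a level or change in RPFs cannot be divided into mRNA amount and translation.

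**Figure D3:**
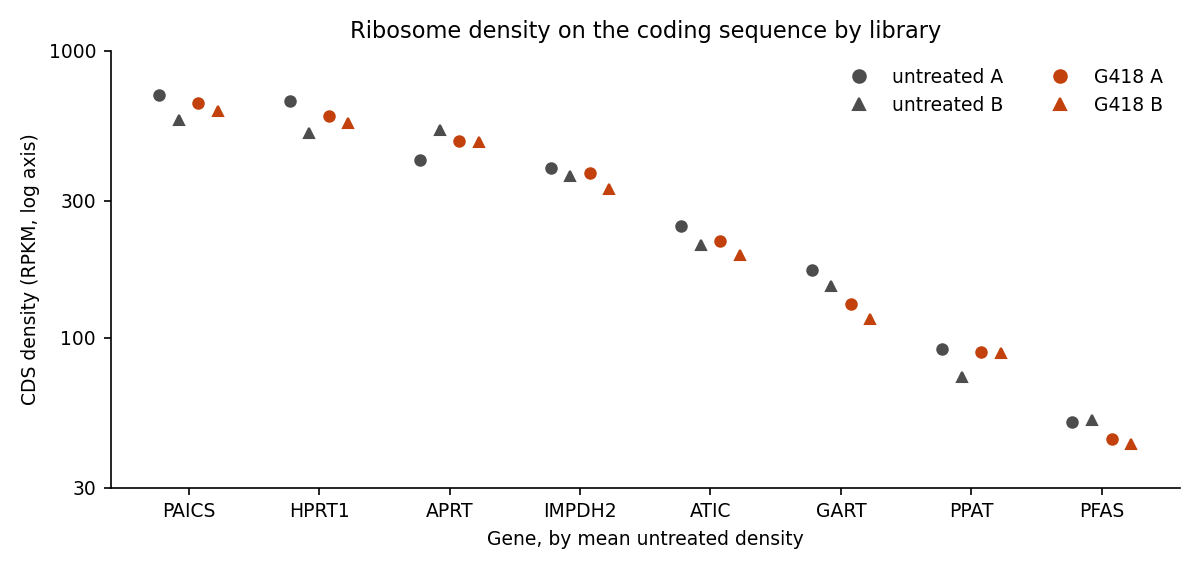
CDS density in RPKM on a log axis (y axis) for the 8 listed genes (x axis, ordered by mean untreated density), with 1 point per library. The G418 points lie below both untreated points for GART and PFAS, and the groups overlap for the other 6 genes.

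CDS reads fell in G418-treated cells for 2 of the 8 members, GART and PFAS, and rose for none by edgeR's quasi-likelihood test, whereas 3.21% of the 8494 transcripts tested fell and 5.31% rose. GART density was 173 and 151 RPKM in untreated A and B and 131 and 116 in G418 A and B. Both G418 values were below both untreated values, and the log2 fold change was -0.47 (SE 0.08, adjusted p = 0.000323 by edgeR), a fall to 0.723 of the untreated level. PFAS density was 50.7 and 51.5 RPKM in untreated and 44.2 and 42.5 in G418 libraries, also without overlap, with a log2 fold change of -0.31 (SE 0.09, adjusted p = 0.0324 by edgeR). GART and PFAS are successive in the pathway, GART acting both before and after PFAS. The calls for GART and PFAS were lost when a G418 library was left out, although the log2 fold changes stayed about as large. Without G418 A and without G418 B they were -0.50 and -0.43 for GART and -0.28 and -0.33 for PFAS. Without untreated A and without untreated B they were -0.43 and -0.50 for GART and -0.38 and -0.24 for PFAS. PFAS also missed the threshold with DESeq2 (adjusted p = 0.0840) and with library totals as the scale (0.151).

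For the other 6 members the test was not passed and the groups overlapped. ATIC had a log2 fold change of -0.22 (SE 0.08, adjusted p = 0.107 by edgeR), with densities of 245 and 210 RPKM in untreated and 218 and 194 in G418 libraries. IMPDH2 followed at -0.18 (adjusted p = 0.183 by edgeR), with 392 and 366 RPKM in untreated and 376 and 331 in G418 libraries. HPRT1 (668 and 516 RPKM untreated, 593 and 559 in G418) and PAICS (704 and 574 RPKM untreated, 658 and 615 in G418) had log2 fold changes of -0.11 and -0.08. APRT had 415 and 531 RPKM in untreated and 485 and 480 in G418 libraries, a log2 fold change of -0.04, and PPAT had 91.1 and 72.9 against 89.3 and 88.5 RPKM, a log2 fold change of 0.04. The untreated libraries were thus farther apart than the G418 libraries for APRT, PAICS, HPRT1 and PPAT. Calls moved with the untreated library left out: without untreated B, HPRT1, PAICS, ATIC and IMPDH2 passed as lower and APRT as higher (0.20, adjusted p = 0.00606 by edgeR), and without untreated A, APRT (-0.27, adjusted p = 0.000784 by edgeR) and IMPDH2 passed as lower. The median over the members was -0.14 against 0.00246 over all transcripts tested. The fitted values were below 0 for 7 of 8 members, but APRT (0.07) and PAICS (0.03) turned positive when library totals replaced TMM as the scale, a change that moved the median of all transcripts to 0.11 and the calls from 451 higher and 273 lower to 887 and 120.

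**Figure D4:**
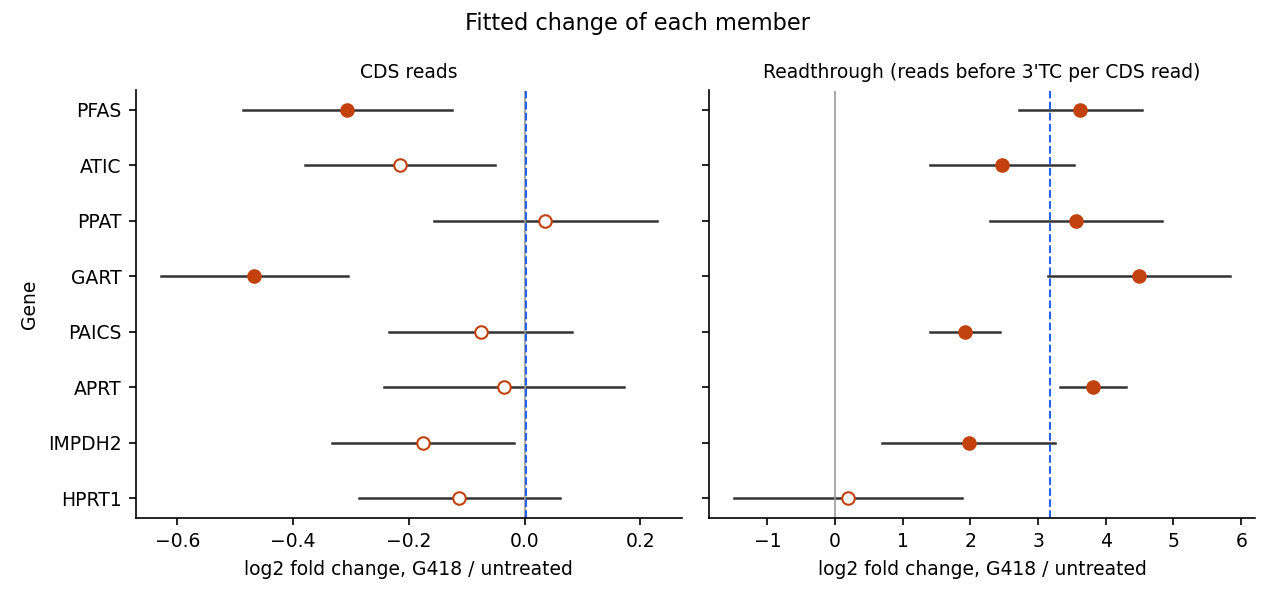
Fitted log2 fold changes of G418 over untreated cells (x axes) for the 8 listed genes (y axis), for CDS reads on the left and for readthrough on the right. Bars are 95% intervals from the SE, filled points passed the adjusted threshold of 0.05, solid lines mark 0 and dashed lines mark the median of all transcripts tested. GART and PFAS are the filled points on the left, and HPRT1 is the single open point on the right.

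5′UTR reads per CDS read gave no call for any of the 7 members with enough 5′UTR reads, by edgeR's quasi-likelihood test, and 1 member had an unadjusted p under 0.05. Over all 4254 transcripts tested, 1.39% were called lower and 0.0235% higher in G418, and 561 had an unadjusted p under 0.05, a share near that of the members. PAICS, the member with that unadjusted p (0.0358), had 5′UTR reads equal to 1.05% and 1.04% of its CDS reads in untreated and 0.713% and 0.613% in G418 libraries, a log2 fold change of -0.65 (SE 0.28, adjusted p = 0.332 by edgeR). PPAT had the highest 5′UTR share of the set, 3.15% and 5.10% of CDS reads in untreated and 3.78% and 2.62% in G418 libraries. APRT had between 1 and 3 5′UTR reads in each library and was under the minimum of 20.

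The members were finally read beside the genes that feed or use the same nucleotides, taken from lists of the surrounding pathways. Of 79 such genes, 54 were listed in all tables and tested for CDS reads, of which 5 fell and 3 rose, with a median log2 fold change of -0.12, beside the 3.21% of all transcripts that fell and the 5.31% that rose. With library totals as the scale, 2 fell and 9 rose, beside 1.41% and 10.4% of all transcripts. With all libraries and TMM the number that rose was thus near the background share. The counts for these 54 genes also moved to 4 lower and 0 higher with DESeq2, 14 and 3 without untreated A, 15 and 9 without untreated B, 0 and 1 without G418 A and 0 and 0 without G418 B. PRPS2, which makes PRPP, went from 126 and 104 RPKM to 94.6 and 84.0 RPKM, with a log2 fold change of -0.44 (SE 0.10, adjusted p = 0.00488 by edgeR). SHMT2, the mitochondrial serine hydroxymethyltransferase that loads folate with one-carbon units, went from 186 and 177 to 156 and 143 RPKM (-0.35, adjusted p = 0.00826 by edgeR). CAD, which starts de novo pyrimidine synthesis, went from 31.0 and 30.7 to 25.3 and 22.9 RPKM (-0.43, adjusted p = 0.00268 by edgeR). RRM1, a ribonucleotide reductase subunit, and TKT, a transketolase of the pentose phosphate pathway, fell by 0.31 and 0.29 on the log2 scale (adjusted p = 0.0187 and 0.0231 by edgeR). None of these calls held without G418 A or without G418 B, although the log2 fold changes stayed about as large. In that order they were -0.47 and -0.41 for PRPS2, -0.36 and -0.35 for SHMT2 and -0.44 and -0.41 for CAD. For RRM1 they were -0.34 and -0.28, and for TKT -0.26 and -0.32. With library totals as the scale, SHMT2 (adjusted p = 0.0513), RRM1 (0.101) and TKT (0.138) also missed the threshold, as RRM1 did with DESeq2 (0.0501).

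Those that rose were AK3, a mitochondrial adenylate kinase family member that uses GTP, UCK1, a uridine-cytidine kinase, and IMPDH1, the isozyme of IMPDH2. AK3 went from 14.3 and 15.0 to 25.1 and 29.4 RPKM, a log2 fold change of 0.85 (SE 0.18, adjusted p = 0.00281 by edgeR). IMPDH1 went from 13.8 and 18.04 to 22.8 and 21.1 RPKM, a log2 fold change of 0.45 (SE 0.14, adjusted p = 0.0469 by edgeR), and UCK1 from 15.1 and 14.4 to 23.2 and 21.8 RPKM (0.54, adjusted p = 0.0371 by edgeR). All 3 missed the threshold with DESeq2 (adjusted p = 0.0815 for AK3, 0.342 for IMPDH1 and 0.338 for UCK1). AK3 also missed it without G418 B (0.314), UCK1 without untreated A (0.121), G418 A (0.472) or G418 B (0.512), and IMPDH1 without G418 A (0.582) or G418 B (0.577) and with recovered reads (0.0517). Without untreated A the log2 fold change of IMPDH1 was 0.15 (adjusted p = 0.565 by edgeR). IMPDH1 and IMPDH2 thus had fitted values of opposite sign, of which only that of IMPDH1 passed, and the difference between them was not tested.

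By list, CDS reads fell for 2 of 5 de novo genes (both members), 2 of 9 genes of PRPP and ribose phosphate supply, 1 of 10 of folate one-carbon supply, 1 of 3 of deoxynucleotide supply and 1 of 16 of pyrimidine synthesis and salvage. They rose for 1 of 3 genes of the AMP and GMP branches, 1 of 7 nucleotide kinases and 1 pyrimidine gene. With 3.21% of all transcripts lower and 5.31% higher, a single call in a list of this size is not a result about the list. No gene of salvage (3 tested) or of purine degradation (6 tested) passed in either direction. Of the 5 markers of the line that were tested, 1 fell and 0 rose. This was VIM, which fell by 0.32 on the log2 scale (adjusted p = 0.00902 by edgeR).

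Readthrough rose for 27 of the 28 genes of these other pathways that could be tested, with a median log2 fold change of 3.41 beside the 82.6% and 3.18 of all transcripts. AK4, with 2 and 0 reads in untreated and 6 and 7 in G418 libraries, was the exception (adjusted p = 0.0822 by edgeR). PRPS2 had 0 and 0 reads in untreated and 13 and 8 in G418 libraries, at least 7.43-fold higher against a floor of 3 reads over the untreated group. RRM1 went from 1 and 0 to 26 and 21 reads (46.1-fold, exact 95% counting interval 7.89 to 1861) and PNP, which cleaves purine nucleosides, from 3 and 0 to 39 and 22 reads (19.01-fold, 6.21 to 94.7). SHMT2 had 8 and 2 untreated and 75 and 67 G418 reads, a 13.9-fold rise (7.33 to 29.6), and DUT, the dUTPase, rose 19.6-fold (7.39 to 73.5). UMPS, which makes UMP, went from 1 and 0 to 11 and 21 reads (28.3-fold, 4.73 to 1152), AMPD2, an AMP deaminase, from 1 and 0 to 20 and 12 reads (27.7-fold, 4.62 to 1127), and RPE, a pentose phosphate epimerase, from 5 and 0 to 61 and 31 reads (14.7-fold, 6.06 to 46.2). Counts were low for NME6, a nucleoside diphosphate kinase family member, at 1 and 0 untreated and 6 and 7 G418 reads, and its call was lost with DESeq2 (adjusted p = 0.108) and without either G418 library. Without untreated A, the fitted log2 fold changes were 7.69 for PNP, 8.19 for RPE, 8.20 for DUT, 7.30 for RRM1, 6.76 for UMPS, 6.79 for AMPD2, 5.46 for NME6 and 5.41 for IMPDH1, each over 1.5 times higher as a fold than with all libraries, and the untreated library that remains holds no read of any of them. That of UMPS was 3.87 without G418 B, against 4.54 with all libraries. IMPDH1 had 1 and 0 untreated and 10 and 3 G418 reads (adjusted p = 0.0366 by edgeR). That call was lost under DESeq2 (adjusted p = 0.195) and without each of the 4 libraries in turn. With no minimum of reads it was also lost (adjusted p = 0.0520 by edgeR). Over the whole 3′UTR its log2 fold change was 1.58 against 2.63, again without a call (adjusted p = 0.103 by edgeR).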

How the data were processed

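RPFs of HEK293T cells were measured in 2 untreated and 2 G418-treated libraries, grouped by their labels, with 2440204 to 6082600 mRNA reads each. The authors collapsed reads with equal sequence and identifier, discarded noncoding RNA, aligned the rest to hg38 with STAR (CASAVA 1.8 is also named in the submitters' processing notes) and kept a single alignment of each read that maps to several places and 1 transcript per gene, so reads of genes with near-identical pseudogenes may be split. The deposited counts are full-length RPFs per region, and the deposited RPM values give them relative to all mapped reads of a library. The deposited RPKM densities leave out the ends of the CDS, and RRTS and occupancy of the 3′UTR, which omit 6 nt after the NTC, are ratio values computed by the authors. A 5′UTR density, deposited as a score of unclear length scaling, was left aside. Whole reads were recovered from RPM (100% of values whole within 0.01). The deposited counts were these or 1 less.

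CDS counts were tested with edgeR 4.0.16 (TMM, low count filter), and readthrough and 5′UTR reads with recovered reads and log(CDS reads + 0.5) as offset, for transcripts with at least 128 mRNA reads per condition and 10 reads, or 20 5′UTR reads and 128 CDS reads. P-values were adjusted over all transcripts tested and measure the spread between these libraries. Intervals of RRTS, of folds from summed reads and of ratios within pairs are exact at 95% and, like floors, cover counting error only. Those of fitted log2 fold changes are approximate 95% intervals from the SE. That SE was derived from the fold change and the F statistic of the edgeR fit, so it includes the spread between libraries. Sequences were taken from GENCODE 44 where the ID without its version (APRT is version 8 there), CDS length, stop codon and 3′TC equalled the deposited ones. The tests were checked on simulated data. Alternatives were DESeq2 1.42.0, other minimum reads, library totals, recovered reads, the whole 3′UTR, summed replicates, TMM-scaled densities, a replicate block and each library left out. The members, gene lists and length classes were chosen with earlier results of these data known. All 10 members were to be named, and of the other pathway genes at most 4 per list and direction for CDS reads and 2 per list for readthrough, by largest called fold with the same direction within A and within B. Some genes that this rule names are not reported here. AK4 and VIM were added after their values were seen. Values were computed with Python 3.11.15 (pandas 2.3.3, scipy 1.17.1, numpy 2.4.6), R 4.3.3 and matplotlib 3.10.9.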

Additional observations from a re-analysis of the deposited data

How the results depend on the processing

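The readthrough calls of APRT, PFAS, GART, PPAT, PAICS and ATIC held under every alternative that was run, whereas IMPDH2 in readthrough and GART and PFAS in CDS reads lost theirs under the settings given above. With DESeq2, CDS reads gave 113 higher and 137 lower transcripts and 1 member lower; with library totals 887 and 120 and 1 member lower; and with the replicate block 452 lower. Leaving out 1 library gave 57 to 990 higher and 15 to 1092 lower transcripts, with 0 to 6 members lower and 0 to 1 higher. Where an arm keeps 1 library, it is assumed to vary like the other group. The replicate letters are shared, but the labels name no common batch, and deviations from the group mean correlated weakly (r = 0.132 over 8494 transcripts), so the block fit stands only here. It changed no call of a member, gave 8 lower and 5 higher of the 54 other pathway genes in CDS reads and ended the readthrough calls of IMPDH1 (adjusted p = 0.114) and NME6 (0.0751). Readthrough calls were 1408 higher and 1 lower with DESeq2, 2609 higher of 5815 with no minimum, 1536 higher of 1662 with at least 20 reads, where HPRT1 is not tested, and 10 lower over the whole 3′UTR, and leaving out 1 library gave 1496 to 2265 higher and 1 to 2 lower. 5′UTR calls were 0 higher with DESeq2, 0 higher and 30 lower with at least 50 reads, 6 higher and 98 lower with the replicate block, and 0 to 29 higher and 16 to 296 lower without 1 library.

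Members without a call changed sign in places. With library totals CDS reads gave 0.068 for APRT and 0.028 for PAICS on the log2 scale, and with DESeq2 readthrough of HPRT1 was -0.062. Leaving out 1 library gave log2 fold changes of CDS reads from -0.27 to 0.20 for APRT, which passed the threshold in opposite directions without untreated A and without untreated B, from -0.23 to 0.025 for HPRT1, from -0.054 to 0.15 for PPAT and from -0.16 to 0.015 for PAICS. It gave -0.77 to 0.75 for readthrough of HPRT1, and for 5′UTR reads -0.66 to 0.030 for PPAT, -0.42 to 0.85 for PFAS and -0.69 to 0.18 for IMPDH2. The cause of these changes was not tested. Over the whole 3′UTR the order in G418 was another one, with mean occupancy of 23.1% for ATIC, 14.3% for GART, 13.2% for APRT, 10.9% for PFAS, 9.21% for IMPDH2, 2.08% for PPAT, 1.03% for PAICS and 0.903% for HPRT1, and readthrough of PRPS2 and UMPS was 2.76 and 2.45 on the log2 scale. Over the 353 nt of APRT actually counted, an alternative added after the data were seen, RRTS in G418 was 13.2%. With 0 to 27 reads before the 3′TC per untreated library, the untreated values of the members carry wide counting intervals.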
